A study of Homo sapiens with 6 samples.

Results

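The glutathione transferase gene GSTM3 and 9 genes of the NRF2 antioxidant pathway (GSTP1, NQO1, HMOX1, GCLC, GCLM, TXNRD1, SLC7A11, NFE2L2 and KEAP1) were followed across 6 single-channel oligonucleotide arrays of HT1080, an established human fibrosarcoma cell line. The probe sets were taken as every probe set whose single gene symbol in the platform annotation is one of these 10 names, which gave 15 of the 22283 probe sets on the array, for 10 of 11963 genes with a probe set of their own. The arrays fall into 3 groups of 2. One group carried the pGUS vector expressing GFP together with an siRNA against MT1-MMP mRNA (called MT1-MMP siRNA), the next the same vector with an siRNA against integrin alpha3 mRNA (alpha3 siRNA), and the last the vector expressing GFP only (mock). All cells were thus transfected with a GFP vector, and whether stable clones, sorted cells or transient pools were used is not given in the sources used here. Whether the pair of arrays in each group represents independent cultures is not stated, so every spread and p-value below measures only the difference between these arrays, which may be technical, and the number of arrays limits the precision.

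NRF2, encoded by NFE2L2, is a transcription factor that heterodimerises with small MAF proteins and binds antioxidant response elements. KEAP1 holds NRF2 in the cytosol and presents it to a CUL3 ubiquitin ligase for degradation, and electrophiles or oxidants that modify KEAP1 let NRF2 accumulate. Its known targets make and use glutathione, reduce quinones and thioredoxin, and break down heme. BACH1 competes with NRF2 at some of the same elements and is best known as a repressor of HMOX1.

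GSTM3 was selected on its measured signal with MT1-MMP siRNA against mock, where it had one of the large rises, so in that comparison the values of all 10 genes are a description, with no test. The comparison of alpha3 siRNA with mock uses the same mock arrays, and that of MT1-MMP siRNA with alpha3 siRNA uses the same MT1-MMP siRNA arrays, so GSTM3 was tested in neither, and the other 9 genes were. All 10 genes and all 15 probe sets lay above the limit on dim probe sets, a mean log2(signal + 32) of 6.31 over the 6 arrays. For a gene with several probe sets the brightest stands for it, and a log2 fold change is that of signal + 32, which understates changes of dim probe sets.

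The target mRNAs were checked first. MMP14, the gene of MT1-MMP, had signals of 812 and 717 with MT1-MMP siRNA, 999 and 1804 under alpha3 siRNA, and 1971 and 3064 on the mock arrays. ITGA3 had 1481 and 1634 with MT1-MMP siRNA, 148 and 347 under alpha3 siRNA, and 1138.5 and 1290.3 on the mock arrays, so each target was lowest in the group carrying its siRNA. MMP14 also lay below both mock arrays with alpha3 siRNA. Median signals of the arrays lay between 72.9 and 83.1. All 9 mesenchymal markers, among them VIM and FN1, were above the limit, with summed signals between 50176 and 65374 with MT1-MMP siRNA, between 35453 and 38398 with alpha3 siRNA, and between 35436 and 42419 on the mock arrays. None of the 8 epithelial markers was above it. Of the other lists, 2 of 7 endothelial markers were above it (PECAM1 and TIE1), as were 2 of 6 leukocyte markers on the array (CD3D and ITGAM) and 1 of 3 erythroid markers (HBB). TIE1 had 719 on mock replicate 2 and at most 144 on the other arrays. The part of these differences in the results below was not tested.

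Promoter windows were available for 8 of the 10 genes, in RefSeq sequence of build GRCh38.p14, from 250 bases before to 50 after a transcription start. They are shown because NRF2 acts through the core of the antioxidant response element, searched here as TGACNNNGC on both strands. The core occurred in 4 of the 8 genes, in GCLM, GSTP1, KEAP1 and TXNRD1, against 16.1% of the 27305 genes with a window. Some genes have more than 1 window. Counted by window, the core occurred in 5 of 11, against 13.3% of 35116 windows, and the other KEAP1 window did not hold the core. In GSTP1 it overlaps the AP-1 letters TGACTCA, which 6.05% of genes hold. GSTM3, GCLC, NFE2L2 and NQO1 had no match, which says only that these letters are not in this window. The GSTM3 window had a GC content of 41.3%, against between 53.7% and 76.3% in the windows of the other 7 genes. Capitals below mark the core, and the stretch around it is printed for the genes that hold it, with the whole window for GSTM3.
GSTM3, chr1:109740989-109741288, minus strand: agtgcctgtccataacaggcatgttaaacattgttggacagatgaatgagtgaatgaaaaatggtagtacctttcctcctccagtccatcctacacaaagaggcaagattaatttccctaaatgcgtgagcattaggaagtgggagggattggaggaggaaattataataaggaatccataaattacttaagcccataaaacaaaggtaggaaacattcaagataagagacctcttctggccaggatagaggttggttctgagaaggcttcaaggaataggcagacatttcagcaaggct
GCLM, chr1:93909426-93909494, minus strand: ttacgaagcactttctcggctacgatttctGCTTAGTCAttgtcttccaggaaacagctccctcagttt
GSTP1, chr11:67583716-67583784, plus strand: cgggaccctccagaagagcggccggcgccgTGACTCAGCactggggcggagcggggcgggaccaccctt
KEAP1, chr19:10502764-10502855, minus strand: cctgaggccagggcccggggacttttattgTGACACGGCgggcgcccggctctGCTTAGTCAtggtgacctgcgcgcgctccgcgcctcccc
TXNRD1, upstream start, chr12:104215650-104215809, plus strand: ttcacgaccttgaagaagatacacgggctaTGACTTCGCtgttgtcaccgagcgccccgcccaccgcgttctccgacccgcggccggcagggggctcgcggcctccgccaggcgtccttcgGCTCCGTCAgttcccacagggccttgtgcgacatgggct
TXNRD1, downstream start, chr12:104286900-104286968, plus strand: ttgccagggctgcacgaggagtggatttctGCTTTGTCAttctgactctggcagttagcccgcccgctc

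In GCLM and in KEAP1 the core reads TGACTAAGC, on the strand opposite to the gene, starting 34 and 31 bases before the transcription start, so that it shows in the printed strand as GCTTAGTCA. KEAP1 has another copy, TGACACGGC, 54 bases before that start. TXNRD1 has TGACTTCGC before its upstream start and, on the opposite strand, TGACGGAGC, which begins 8 bases before that start and reaches it. It has TGACAAAGC, also on the opposite strand, before its downstream start. A match is a description of the letters and not evidence of binding in these cells.

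GSTM3, a mu-class glutathione transferase that conjugates glutathione to electrophiles, had signals of 1419 and 1160.1 with MT1-MMP siRNA, 1055 and 805 under alpha3 siRNA, and 146 and 582 on the mock arrays. Both groups with an siRNA lay above both mock arrays, and the MT1-MMP siRNA arrays lay above the alpha3 siRNA arrays. The group means were 1289.7 ± 183 with MT1-MMP siRNA, 930.1 ± 177 with alpha3 siRNA and 364 ± 308 on the mock arrays (SD, n = 2 each), so the mock pair was the most spread. In RNA of whole cultures, fewer cells with a transcript and less of it per cell cannot be told apart. The ratio of means was 3.54 for MT1-MMP siRNA over mock and 2.55 for alpha3 siRNA over mock. GSTM3 thus had a log2 fold change of 1.99 in cells with MT1-MMP siRNA and of 1.53 in those with alpha3 siRNA, both against the same mock arrays, and the difference between the siRNA groups was 0.46.

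The size of both differences rested on which mock array was used. Leaving out the dimmer mock replicate 1 gave a log2 fold change of 1.10 for MT1-MMP siRNA and 0.63 for alpha3 siRNA. Leaving out mock replicate 2 gave 2.88 for MT1-MMP siRNA and 2.42 for alpha3 siRNA. On the mock arrays GSTM3 differed by 1.78 on the log2 scale between replicates 2 and 1, and 0.423% of the 8045 tested genes differed as much or more within that pair.

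**Figure D1:**
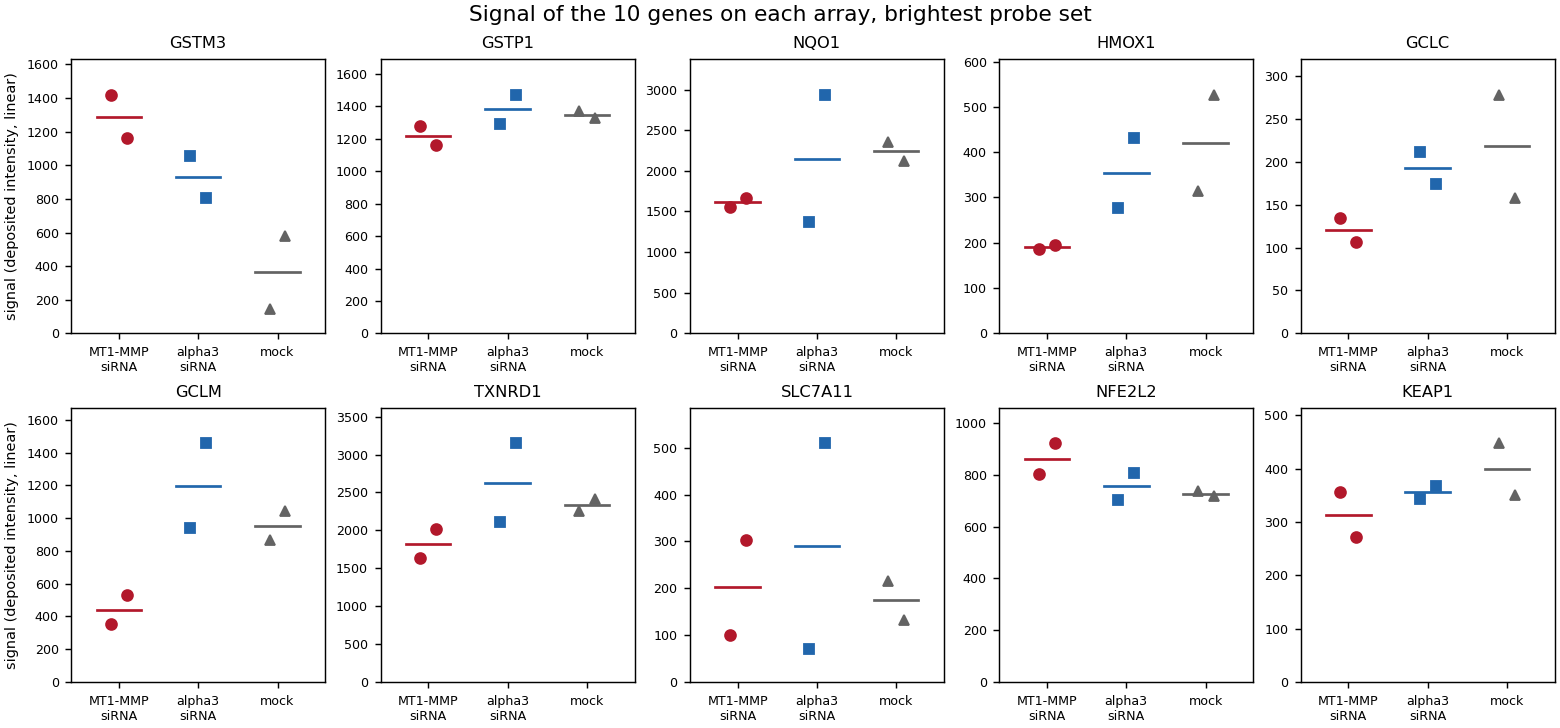
Signal (deposited intensity, linear axis from 0) of the brightest probe set of each of the 10 genes, with 1 point per array, array 1 left of array 2, and a bar at the mean of the 2 arrays, for MT1-MMP siRNA, alpha3 siRNA and mock. GSTM3 lies at 1160.1 or above with MT1-MMP siRNA and at 582 or below on the mock arrays, while GCLM lies at 530 or below with MT1-MMP siRNA and at 864 or above on the mock arrays.

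The paralogs of GSTM3 have probe sets of their own, and any hybridisation between related transcripts cannot be told apart from expression. GSTM2 had 366 and 349 with MT1-MMP siRNA, 372 and 335 under alpha3 siRNA, and 370.3 and 201 on the mock arrays. The brighter GSTM1 probe set had 317 and 268.5 with MT1-MMP siRNA, 300 and 235 under alpha3 siRNA, and 313 and 135 on the mock arrays. For both, the groups overlapped, and mock replicate 2 was the lowest array, while for GSTM3 mock replicate 1 was the lowest. GSTM5 and the brighter GSTM4 probe set had log2 fold changes against mock of 0.0061 and -0.03 with MT1-MMP siRNA, and of -0.27 and 0.11 with alpha3 siRNA. The second GSTM4 probe set was below the limit on dim probe sets, at 7.1 or less on every array.

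GSTP1, the pi-class transferase, differed little between the groups. It had 1280.1 and 1159.6 with MT1-MMP siRNA, 1293 and 1471 under alpha3 siRNA, and 1372 and 1325 on the mock arrays. The MT1-MMP siRNA arrays lay below the mock and the alpha3 siRNA arrays, with a log2 fold change of -0.14 against mock and of -0.17 against alpha3 siRNA (95% interval -0.57 to 0.22, limma adjusted p = 0.587).

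Among the 9 genes other than GSTM3, 6 lay lower with MT1-MMP siRNA than with mock with no overlap of arrays (GCLM, HMOX1, GCLC, NQO1, TXNRD1 and GSTP1), 1 lay higher (NFE2L2), and 2 overlapped (SLC7A11 and KEAP1). Arrays lay lower without overlap for 25.3% of all 8045 genes and higher for 24.6% (49.9% in either direction), and since GSTM3 was chosen in this contrast nothing is read from the count. Their median log2 fold change was -0.36, against 0.0024 over all genes. No gene of the 8045 passed a Benjamini-Hochberg adjusted p of 0.05 in limma in this contrast (0% higher and 0% lower), and 1160 genes (14.4%) had an unadjusted p under 0.05.

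The 2 subunits of glutamate-cysteine ligase, the rate-limiting enzyme of glutathione synthesis, were both lower with MT1-MMP siRNA. GCLM, the modifier subunit, had 352 and 530 with MT1-MMP siRNA, 940.4 and 1456.5 under alpha3 siRNA, and 864 and 1046 on the mock arrays. Its MT1-MMP siRNA arrays lay below the other 4 arrays, with a ratio of means to mock of 0.462 and a log2 fold change of -1.08 (-1.35 to -0.81 on leaving out 1 array). GCLC, the catalytic subunit, had 135 and 107 with MT1-MMP siRNA, 211 and 174 under alpha3 siRNA, and 278 and 158 on the mock arrays. Again both MT1-MMP siRNA arrays were the lowest, with a log2 fold change of -0.67, which became -0.32 when mock replicate 1 was left out and -1.03 when mock replicate 2 was. Its other probe set had 72.9 and 113 with MT1-MMP siRNA, 132 and 127 under alpha3 siRNA, and 202 and 121 on the mock arrays, which gave -0.62 on the log2 scale with MT1-MMP siRNA against mock.

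HMOX1, which encodes the stress-inducible heme oxygenase that opens the heme ring, had 186 and 196 with MT1-MMP siRNA, 277 and 431 under alpha3 siRNA, and 314 and 527 on the mock arrays. The MT1-MMP siRNA pair was tight and below the other 4 arrays, with a ratio of means to mock of 0.454. The log2 fold change against mock was -0.98, and -0.64 without mock replicate 2 or -1.33 without mock replicate 1.

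TXNRD1, the cytosolic thioredoxin reductase, had 1631.5 and 2016.5 with MT1-MMP siRNA, 2105 and 3146.5 under alpha3 siRNA, and 2253 and 2415 on the mock arrays. Both MT1-MMP siRNA arrays were below the other 4, by a log2 fold change of -0.36 against mock. NQO1, the quinone reductase, had 1552 and 1670.2 with MT1-MMP siRNA, 1364.5 and 2934 under alpha3 siRNA, and 2355 and 2122 on the mock arrays. Its log2 fold change against mock was -0.47, and the alpha3 siRNA pair spanned all other arrays. The 3 probe sets of NQO1 had log2 fold changes of -0.83, -0.47 and -0.23 with MT1-MMP siRNA against mock, and in the last of these the arrays overlapped.

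SLC7A11, the subunit of the cystine importer that supplies cysteine for glutathione, had 99.3 and 304 with MT1-MMP siRNA, 70.7 and 509 under alpha3 siRNA, and 216 and 132 on the mock arrays. Both pairs with an siRNA reached past the mock pair on each side, so no direction can be given. The log2 fold change with MT1-MMP siRNA was 0.06, and ranged from -0.62 to 0.73 on leaving out 1 array of that group. Its other probe sets had log2 fold changes of -0.13 and -0.14 with MT1-MMP siRNA against mock.

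With MT1-MMP siRNA against mock the regulators had values of opposite sign, and that of KEAP1 was close to that of TXNRD1 (-0.36). NFE2L2 had 804 and 922 with MT1-MMP siRNA, 705 and 807 under alpha3 siRNA, and 737 and 720.0 on the mock arrays. Both MT1-MMP siRNA arrays lay above both mock arrays, with a log2 fold change of 0.23. KEAP1 had 356 and 272 with MT1-MMP siRNA, 343 and 368 under alpha3 siRNA, and 447.5 and 350.2 on the mock arrays, with a log2 fold change of -0.32 and overlapping groups. NRF2 is controlled mainly through its protein, which these arrays do not measure.

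**Figure D2:**
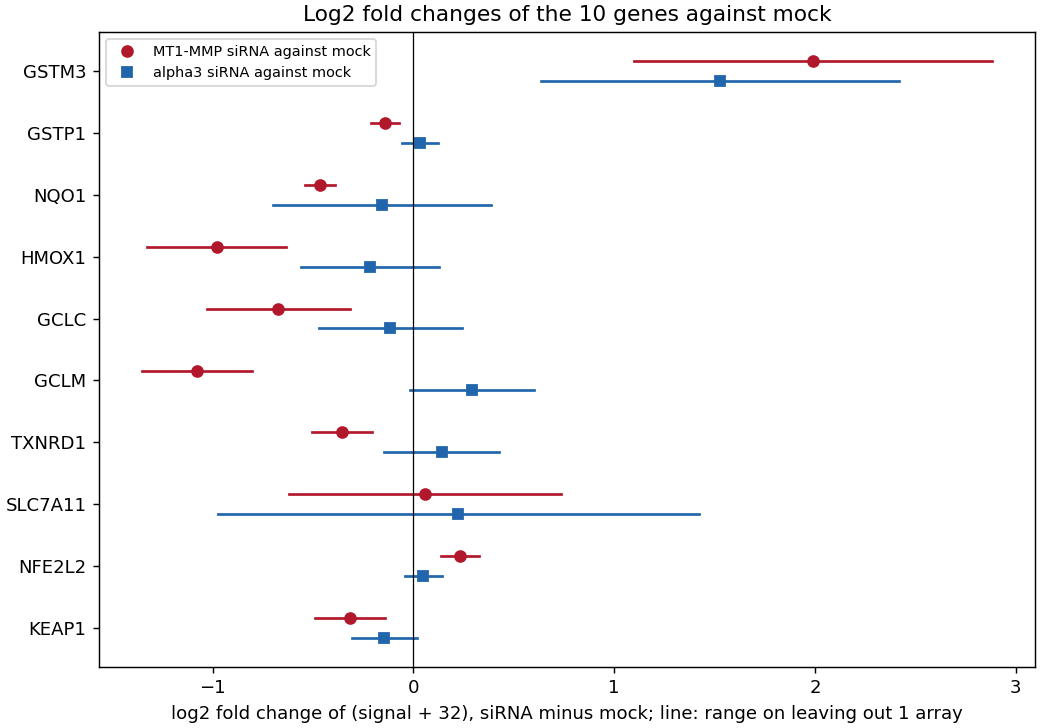
Log2 fold change of signal + 32 (horizontal axis) of each gene for MT1-MMP siRNA (circles) and for alpha3 siRNA (squares) against the same mock arrays, with lines spanning the values on leaving out 1 of the 6 arrays. GSTM3 stays above 0 in both, and NFE2L2 does with MT1-MMP siRNA. GCLM, HMOX1, GCLC, NQO1, TXNRD1, GSTP1 and KEAP1 stay below 0 with MT1-MMP siRNA, and the SLC7A11 line crosses 0. The alpha3 siRNA lines of the 9 genes other than GSTM3 cross 0. Where the arrays of a gene do not overlap with mock, leaving out 1 array cannot move its line across 0.

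With alpha3 siRNA against mock, the 9 genes other than GSTM3 lay on both sides of the mock level. All 9 had overlapping arrays, against 34.4% of genes that did not overlap in this contrast (16.4% higher and 18% lower). Of these 9, 0 passed the threshold in limma (adjusted p between 0.915 and 0.986) and 0 had an unadjusted p under 0.05, where 0.0249% of the 8045 genes rose, 0% fell and 5.73% had an unadjusted p under 0.05. Their median log2 fold change was 0.03, against -0.01 over all genes. The 95% intervals were wide, from -0.33 to 0.92 for GCLM, from -0.87 to 0.56 for NQO1 and from -1.41 to 1.86 for SLC7A11, so a p above the threshold does not show that these genes were unaffected.

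The alpha3 siRNA pair differed within itself in these genes. Array 2 was higher than array 1 for 8 of the 10 genes, with a median difference of 0.38 on the log2 scale, against 0.01 over all genes, of which 51.2% were higher on array 2. The difference was 2.40 for SLC7A11, 1.09 for NQO1, 0.61 for GCLM, 0.58 for HMOX1 and 0.57 for TXNRD1. For SLC7A11 only 0.199% of genes were as far apart within that pair, and for NQO1 3.16%. Array 2 of this group was the highest of the 6 arrays for 5 of the 10 genes (NQO1, GCLM, TXNRD1, SLC7A11 and GSTP1). In the MT1-MMP siRNA pair array 2 was higher for 6 of the 10 genes and in the mock pair for 4, with medians of 0.08 and -0.04. Without alpha3 siRNA replicate 2 the log2 fold change against mock was -0.98 for SLC7A11, -0.70 for NQO1, -0.15 for TXNRD1 and -0.02 for GCLM. Without alpha3 siRNA replicate 1 it was 1.42 for SLC7A11, 0.39 for NQO1, 0.43 for TXNRD1 and 0.60 for GCLM.

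**Figure D3:**
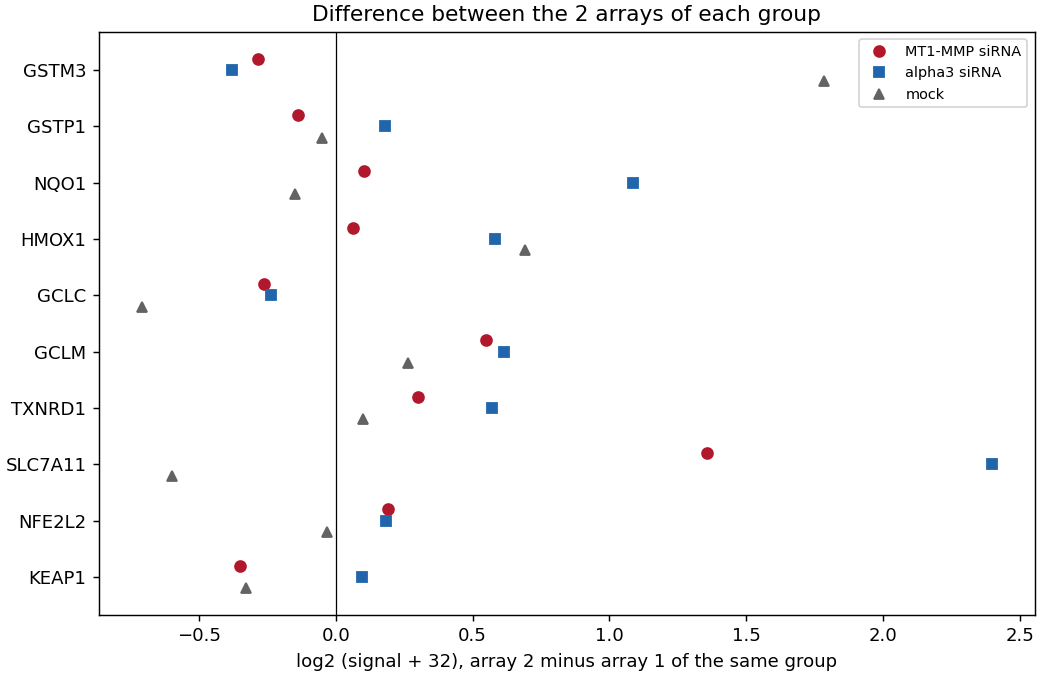
Difference in log2(signal + 32) between array 2 and array 1 of the same group (horizontal axis), with 1 point per gene and group. The alpha3 siRNA points lie right of 0 for 8 of the 10 genes, up to 2.40 for SLC7A11, and the point farthest from 0 in the mock pair is GSTM3 at 1.78.

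Genes with several probe sets showed whether this spread belonged to a single probe set. All 3 probe sets of SLC7A11 were higher on alpha3 siRNA replicate 2 than on replicate 1, at 509 and 70.7, at 218 and 78.8, and at 133 and 65.2. All 3 of NQO1 were too, at 2934 and 1364.5, at 921 and 357, and at 588 and 222. The 2 probe sets of GCLC, by contrast, differed little within that pair, at 174 and 211 and at 127 and 132 on replicates 2 and 1.

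**Figure D4:**
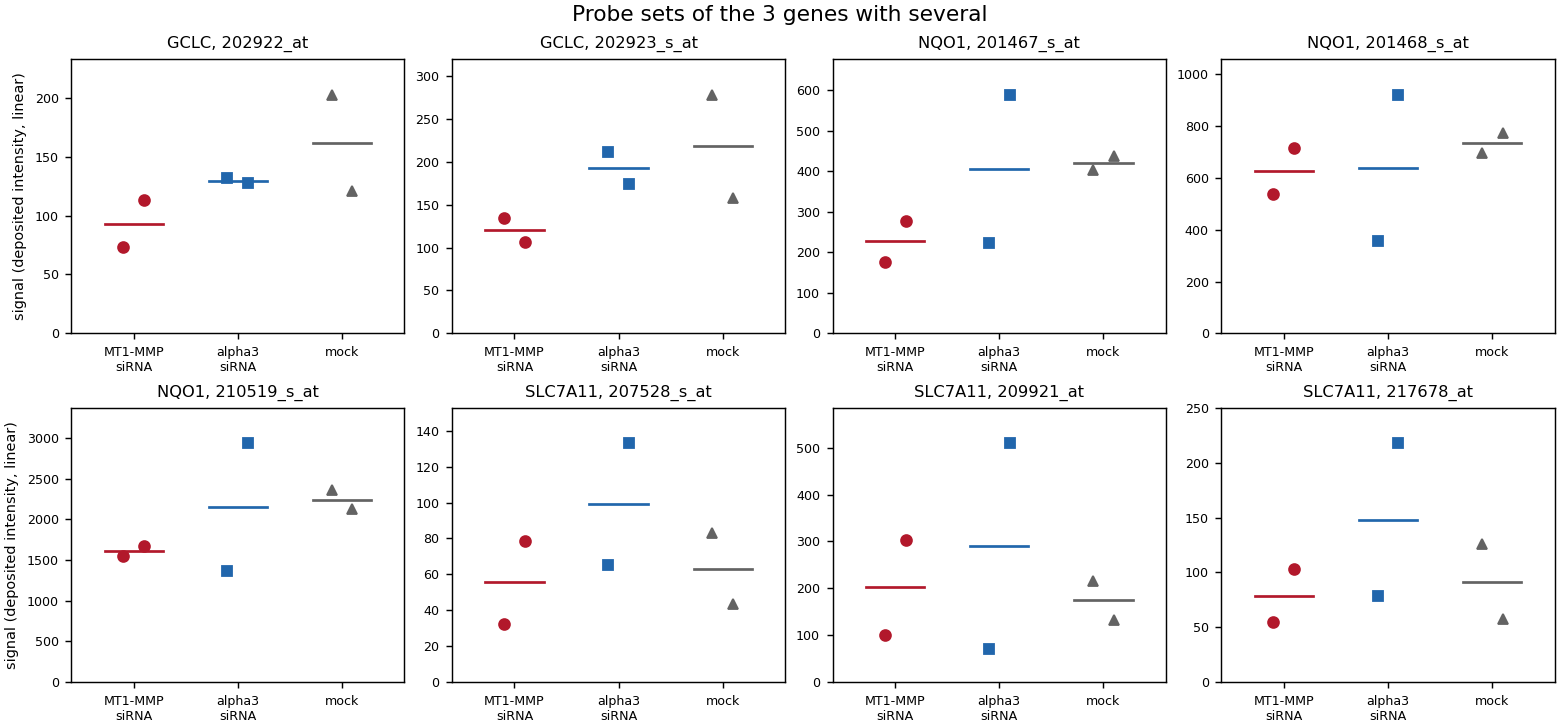
Signal (linear axis from 0) of each probe set of GCLC, NQO1 and SLC7A11, with 1 point per array and a bar at the group mean for MT1-MMP siRNA, alpha3 siRNA and mock. The 3 probe sets of NQO1 and the 3 of SLC7A11 have a wide alpha3 siRNA pair with array 2 on top, and the 2 of GCLC do not.

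MT1-MMP siRNA was then compared with alpha3 siRNA, which sets the same vector carrying different siRNAs against each other. Of the 9 genes other than GSTM3, 5 were lower with MT1-MMP siRNA with no overlap of arrays (GCLM, HMOX1, GCLC, TXNRD1 and GSTP1) and 0 were higher, where 25.9% of all genes lay lower and 28% higher (53.9% in either direction). In limma 0 of the 9 passed the threshold and 2 had an unadjusted p under 0.05 (GCLM and HMOX1), where 0.82% of genes were called higher, 0.572% lower, and 23.4% had an unadjusted p under 0.05. GCLM had a log2 fold change of -1.37 (SE 0.27, 95% interval -1.997 to -0.748, adjusted p = 0.0534), with 352 and 530 against 940.4 and 1456.5. Its adjusted p was 0.0492 with an offset of 100 and 0.0475 with the limit at the 60th percentile, and reached 0.0878 with no limit. On leaving out 1 array its log2 fold change ran from -1.68 to -1.07 with adjusted p from 0.0531 to 0.287.

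HMOX1 had a log2 fold change of -0.76 (95% interval -1.42 to -0.11, limma adjusted p = 0.160), GCLC of -0.56 (-1.17 to 0.06, adjusted p = 0.253) and TXNRD1 of -0.50 (-1.01 to 0.01, adjusted p = 0.223) in this comparison. NQO1 had -0.31 and SLC7A11 -0.17, and both turned positive without alpha3 siRNA replicate 2, at 0.23 and 1.03. Their other probe sets had -0.65 and 0.10 for NQO1 and -0.58 and -0.62 for SLC7A11 in this comparison. NFE2L2 had 0.18 (-0.24 to 0.61, adjusted p = 0.590) and KEAP1 had -0.17 (-0.67 to 0.32, adjusted p = 0.668).

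Over the 6 arrays the 10 genes did not share 1 pattern. As a description over 6 arrays in 3 groups, the log2 values of GCLM and TXNRD1 had a Pearson r of 0.93 (Spearman rho 0.94). Those of GCLM and HMOX1 had 0.87 (0.89), and those of GCLC and KEAP1 had 0.86 (0.60). Those of NQO1 and TXNRD1 had 0.82 (0.77), and those of HMOX1 and TXNRD1 had 0.81 (0.94). GSTM3 had a negative r with 8 of the 9 others, from -0.77 with GCLC to -0.19 with SLC7A11, and 0.42 with NFE2L2. NFE2L2 had an r between -0.54 and 0.58 with its target genes apart from GCLC, with which it was at -0.75.

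Among the 1996 tested genes with a range of at least 1 on the log2 scale, those most like GSTM3 over the 6 arrays were TGFB1 (Pearson r 0.99, Spearman rho 0.94), MARCKSL1 (0.97, 0.94), CHRDL1 (0.96, 0.60), AMIGO2 (0.95, 0.60) and FMNL1 (0.95, 1). TGFB1, a growth factor, had 1042 and 1078 with MT1-MMP siRNA, 959 and 793 under alpha3 siRNA, and 358 and 781 on the mock arrays, so its mock pair was split in the same way as that of GSTM3. The genes most like the others were SRSF1 and TBP for GCLM (r 0.9999 and 0.994), CPT1A and EPB41L4B for HMOX1 (0.99 and 0.97), IPO4 and PNP for NQO1 (0.99 and 0.98), PLCB1 and PTPN3 for GCLC (0.98 and 0.96), and DECR2 and MBD5 for SLC7A11 (0.93 each). SRSF1, a splicing factor, had 1285 and 1642 with MT1-MMP siRNA, 2280.0 and 2993 under alpha3 siRNA, and 2192 and 2440.3 on the mock arrays. With so many candidates and 6 arrays, correlations this high are a ranking and no more.

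The wider redox network was read from 8 lists holding 111 genes, of which 89 were tested. Of the 79 that are not among the 10, 26 lay higher with MT1-MMP siRNA than mock without overlap (32.9%, against 24.6% of all genes) and 15 lower (19.0%, against 25.3%), with a median log2 fold change of 0.05. With alpha3 siRNA 10 lay higher and 10 lower (12.7% each, against 16.4% and 18% of all genes). In limma 0 of the 79 passed the threshold for either siRNA against mock. Between MT1-MMP siRNA and alpha3 siRNA 27 lay higher and 19 lower (34.2% and 24.1%, against 28% and 25.9% of all genes), and 1 of the 79 was called, GLRX, which was higher, where 0.82% of all genes were called higher and 0.572% lower. In the lists that follow, a range in square brackets is that on leaving out 1 array.

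In the glutathione synthesis and recycling list, 9 of 11 genes were tested, with a median log2 fold change against mock of -0.20 [-0.60 to -0.14] for MT1-MMP siRNA and 0.21 [0.0096 to 0.25] for alpha3 siRNA. GLRX, the glutaredoxin that removes glutathione from proteins, had 1875.5 and 1666 with MT1-MMP siRNA, 835 and 766 under alpha3 siRNA, and 873 and 767 on the mock arrays. The log2 fold change was 1.08 against mock. Against alpha3 siRNA it was 1.11 (SE 0.18, limma adjusted p = 0.0329), a call lost on leaving out any 1 array, with adjusted p from 0.0506 to 0.242 and log2 fold changes from 1.03 to 1.20. The other GLRX probe set had 0.77 with MT1-MMP siRNA against mock and 0.82 between the siRNAs. Its adjusted p between the siRNAs was 0.0989 in the limma fit of every probe set, so it was not called. The opposite end of the list with MT1-MMP siRNA was GCLM. SLC3A2, the heavy chain of the cystine importer, had 228 and 466 with MT1-MMP siRNA, 405 and 589.9 under alpha3 siRNA, and 416 and 314 on the mock arrays, the largest positive value of the list with alpha3 siRNA (0.40 [0.15 to 0.66]).

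Of the 14 tested glutathione transferases, 6 lay higher and 1 lower with MT1-MMP siRNA than mock without overlap, where 24.6% of all genes lay higher and 25.3% lower. With alpha3 siRNA 3 lay higher and 2 lower, where 16.4% and 18% of all genes did. Both counts of higher genes include GSTM3, which was selected on its rise over these mock arrays and was at the upper end in both. The median was 0.25 [0.17 to 0.35] for MT1-MMP siRNA and 0.07 [-0.0024 to 0.11] for alpha3 siRNA. GSTT2, a theta-class transferase, had 80.3 and 103 with MT1-MMP siRNA, 75.3 and 20.1 under alpha3 siRNA, and 78.0 and 104 on the mock arrays, the lowest value of the list with alpha3 siRNA (-0.71 [-1.23 to -0.19]).

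Among the 12 tested regulators of NRF2, BACH1 had 172 and 148 with MT1-MMP siRNA, 57.6 and 56.4 under alpha3 siRNA, and 81.5 and 104 on the mock arrays. The 3 groups did not overlap. BACH1 was the highest of the list with MT1-MMP siRNA (log2 fold change against mock 0.62) and the lowest with alpha3 siRNA (-0.48). Between the siRNAs it differed by 1.11 [1.02 to 1.19] (SE 0.22, limma adjusted p = 0.0534). That p was 0.0492 with an offset of 100 and 0.0987 with no limit on dim probe sets. The size of this difference depended on the offset, at 0.73 with an offset of 100 and 1.47 with an offset of 1. GSK3B, a kinase that marks NRF2 for degradation, had 336 and 324 with MT1-MMP siRNA, 408 and 597 under alpha3 siRNA, and 419 and 463 on the mock arrays (-0.39 with MT1-MMP siRNA). MAFG, a small MAF partner, was the highest with alpha3 siRNA at 0.25 [0.06 to 0.43]. The median of the list was 0.05 [0.0079 to 0.14] for MT1-MMP siRNA and 0.02 [-0.10 to 0.10] for alpha3 siRNA.

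Of the 11 tested genes of the thioredoxin and peroxiredoxin system, 2 lay higher and 5 lower with MT1-MMP siRNA than mock without overlap, where 24.6% of all genes lay higher and 25.3% lower. The median was -0.12, and turned to 0.15 without mock replicate 1 and to 0.09 with every probe set on its own. TXNIP, the inhibitor of thioredoxin, had 2323 and 2027 with MT1-MMP siRNA, 705 and 122 under alpha3 siRNA, and 198 and 537 on the mock arrays. Between the siRNAs TXNIP differed by 2.71 [1.58 to 3.84], with a limma adjusted p of 0.0729, and of 0.0421 with the mean of probe sets, 0.0434 without alpha3 siRNA replicate 1 and up to 0.326 on leaving out another array. Its other 2 probe sets differed by 2.97 and 2.05 and each had an adjusted p of 0.0244 in the limma fit of every probe set. TXNRD2, the mitochondrial reductase, had 209.7 and 129 with MT1-MMP siRNA, 268 and 220.5 under alpha3 siRNA, and 280.0 and 237 on the mock arrays (-0.55 [-0.85 to -0.26] against mock). The other TXNRD2 probe set had 0.12 with MT1-MMP siRNA against mock, and the mean of both -0.22. With alpha3 siRNA the list ran from PRDX1 (-0.17 [-0.37 to 0.04]) to PRDX2 (0.72 [0.46 to 0.99]), both peroxiredoxins, and its median was 0.05 [0.04 to 0.16]. The other PRDX2 probe sets had 0.41 and 0.26 with alpha3 siRNA against mock, and the mean of its probe sets was 0.46.

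Of the 10 tested genes of superoxide and peroxide removal, catalase (CAT) had 1939 and 1422 with MT1-MMP siRNA, 1105 and 691 under alpha3 siRNA, and 1146 and 876 on the mock arrays (log2 fold change against mock 0.71 with MT1-MMP siRNA). GPX2, a glutathione peroxidase, had 58.5 and 16.2 with MT1-MMP siRNA, 116 and 56.3 under alpha3 siRNA, and 84.0 and 135 on the mock arrays, near the limit on dim probe sets (-1.08 [-1.53 to -0.62] with MT1-MMP siRNA). With alpha3 siRNA the list ran from MSRB2 (-0.85) to MSRB1 (0.45 [0.22 to 0.67]), both methionine sulfoxide reductases. The median of the list was 0.07 [0.06 to 0.21] for MT1-MMP siRNA and -0.05 [-0.17 to 0.08] for alpha3 siRNA.

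Among the 14 tested enzymes and pumps for quinones, aldehydes and xenobiotics, CBR3, a carbonyl reductase, had 218 and 221 with MT1-MMP siRNA, 327 and 405 under alpha3 siRNA, and 372 and 464 on the mock arrays (log2 fold change against mock -0.83). AKR1C3, an aldo-keto reductase with closely similar copies that its probe set may not separate, had 518.5 and 219 with MT1-MMP siRNA, 8.2 and 77.9 under alpha3 siRNA, and 139.9 and 167 on the mock arrays. It was the highest of the list with MT1-MMP siRNA (1.01 [0.44 to 1.57]) and the lowest with alpha3 siRNA (-1.48 [-2.20 to -0.75]). Between the siRNAs AKR1C3 differed by 2.48 (limma adjusted p = 0.0534). That p was 0.0475 with an offset of 100 or the limit at the 60th percentile, 0.0892 with no limit, and from 0.0679 to 0.287 on leaving out 1 array. EPHX1, an epoxide hydrolase, was the highest with alpha3 siRNA (0.54). The median of the list was 0.01 [-0.11 to 0.13] for MT1-MMP siRNA and -0.13 [-0.21 to -0.03] for alpha3 siRNA.

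Of the 10 tested genes of NADPH supply, PGD, an enzyme of the pentose phosphate pathway, had 727 and 800.5 with MT1-MMP siRNA, 1037 and 1352 under alpha3 siRNA, and 1203 and 1273 on the mock arrays (log2 fold change against mock -0.67). NNT, the mitochondrial transhydrogenase, was the highest with MT1-MMP siRNA (0.69). With alpha3 siRNA the list ran from IDH2 (-1.35 [-2.21 to -0.48]), at 110.5 and 11.0 against 118 and 233 on the mock arrays, to MTHFD2 (0.43 [0.16 to 0.71]). The other IDH2 probe set had -0.0039, and the mean of both -0.68. Its medians were 0.16 with MT1-MMP siRNA, which was -0.01 without mock replicate 2 and -0.07 without MT1-MMP siRNA replicate 2, and -0.06 with alpha3 siRNA, which was 0.07 without alpha3 siRNA replicate 1.

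Of the 9 tested genes of heme and iron handling, HMOX1 was the lowest with MT1-MMP siRNA, and ABCB6, a porphyrin transporter, the highest (log2 fold change 0.46). ABCB6 had 451 and 265 with MT1-MMP siRNA and 227 and 261 on the mock arrays, with a range of [0.11 to 0.81], whose low end leaves out the brighter MT1-MMP siRNA array. HMOX2, the constitutive heme oxygenase, had 267 and 268 with MT1-MMP siRNA, 508 and 494 under alpha3 siRNA, and 455.5 and 394 on the mock arrays, the highest of the list with alpha3 siRNA (0.23 [0.13 to 0.32], and 0.01 with the mean of probe sets). BLVRB, a biliverdin reductase, was the lowest there (-0.42). The median of the list was 0.08 [0.01 to 0.16] for MT1-MMP siRNA and -0.18 [-0.28 to -0.05] for alpha3 siRNA.

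**Figure D5:**
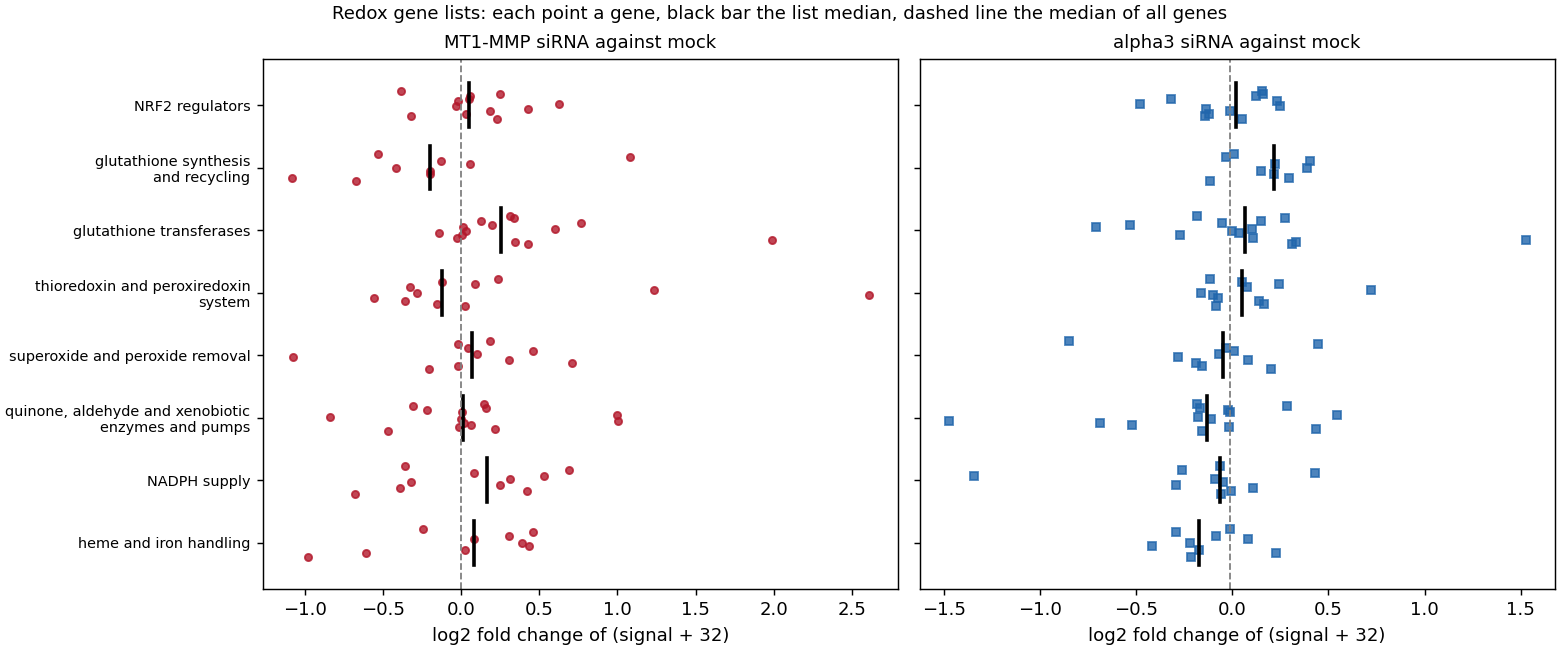
Log2 fold change of signal + 32 against mock (horizontal axes) for each tested gene of the 8 redox lists, with MT1-MMP siRNA at left and alpha3 siRNA at right, a black bar at each list's median and a dashed line at the median of all 8045 genes. The list medians lie between -0.20 and 0.25 for MT1-MMP siRNA and between -0.18 and 0.21 for alpha3 siRNA, and single genes such as GSTM3 and TXNIP lie far to the right with MT1-MMP siRNA.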

How the data were processed

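RNA of HT1080 cells was measured on 6 single-channel arrays. The authors deposited 1 linear intensity per probe set, and all 6 arrays share a trimmed mean of 250.1 over their middle 96%, which shows scaling to a set level. Software for summarisation and any detection calls: not given in the sources used here. Replicate pairs shared at most 78 identical values.

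The log2 of value + 32 was used, after raising values under 1 to 1. Of 22283 probe sets, 19065 had 1 gene symbol, 1043 several, 2107 none, and 68 were controls; 19053 of the single symbols matched a current gene record by identifier. Probe sets with 1 symbol and a mean above the 40th percentile were kept (11828), and the brightest per gene was tested (8045 genes). Group means were fitted over the 6 arrays with limma 3.58.1 (R 4.3.3, lmFit, eBayes with trend, 3 residual and 5.35 prior degrees of freedom), with Benjamini-Hochberg adjustment over all genes and calls at 0.05. The fit was also run on simulated data with independent normal noise. That run does not show how often the fit finds true changes on these arrays. Figures used matplotlib 3.10.9.

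The genes and lists were chosen with earlier results of these data known. Besides the 10 genes, the text names the highest and lowest gene of each list against mock, called list genes, GSTM paralogs, and the genes most like GSTM3 (5) and like each other gene with a range of at least 1 (2 each). Alternatives were other normalizations, offsets, limits on dim probe sets, probe set rules, variance models and samples, the array number as a block, and leaving out each array.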

Additional observations from a re-analysis of the deposited data

How the results depend on the processing

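The count of genes called depended on the processing. With MT1-MMP siRNA against mock it was 0, and 1 with quantile normalization, 3 with an offset of 1, 6 with an offset of 100, 2 with the mean of probe sets, 2 with every probe set and 7 with only the arrays of the contrast. It was 0 to 8 on leaving out 1 array. With alpha3 siRNA against mock it was 2, and 1 with quantile normalization, with an offset of 100, with no limit on dim probe sets, with every probe set and with only the arrays of the contrast. It was 0 with an offset of 1 or the limit at the 60th percentile, and 0 to 9 on leaving out 1 array. Between MT1-MMP siRNA and alpha3 siRNA it was 112, and 69 with an offset of 1, 22 with no limit and 178 with the limit at the 60th percentile, 72 with no variance trend, and 0 to 83 on leaving out 1 array (0 without either MT1-MMP siRNA array, 6 without alpha3 siRNA replicate 2). The cause was not tested.

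GSTM3 kept its direction in all alternatives. Its arrays did not overlap in any comparison, so leaving out 1 array could not change its sign. The log2 fold changes on leaving out 1 array were 1.10 to 2.88 with MT1-MMP siRNA against mock and 0.63 to 2.42 with alpha3 siRNA against mock. Between the siRNAs they were 0.27 to 0.65. Of the 10 genes, 2 to 3 lay higher and 6 to 7 lower with MT1-MMP siRNA than mock on leaving out 1 array, 1 to 7 higher and 0 to 7 lower with alpha3 siRNA than mock, and 1 to 4 higher and 5 to 8 lower between the siRNAs, where a lone array overlaps less often by construction. With quantile normalization 2 lay higher between the siRNAs, against 1. Of 510 log2 fold changes of the 10 genes under the alternatives, 12 were counted as moved by more than the spread between arrays. Another 3 passed the threshold that the reported value missed, all of them GCLM between the siRNAs. Outside MT1-MMP siRNA against mock, a move of a gene other than GSTM3 counted only if its sign also changed. Shifts of the same sign beyond that spread were left out. NQO1 with alpha3 siRNA against mock, for example, went from -0.16 to -0.70 without alpha3 siRNA replicate 2. GLRX lost its call between the siRNAs in 4 other alternatives (no limit on dim probe sets, mean of probe sets, no variance trend, only the arrays of the contrast), with adjusted p of 0.0502 to 0.0587 in limma.

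The array numbers are not stated to pair the arrays, and same-numbered arrays deviated from their group means with correlations of 0.13 (MT1-MMP siRNA and alpha3 siRNA), -0.18 (MT1-MMP siRNA and mock) and -0.18 (alpha3 siRNA and mock). With the number as a replicate block, 11 genes were called with MT1-MMP siRNA against mock, 4 with alpha3 siRNA against mock and 114 between the siRNAs, and GCLM had an adjusted p of 0.0251 and AKR1C3 of 0.0443 between the siRNAs in limma. The block changed no other call among the 10 genes and the named list genes. A block shared by all groups cannot change a log2 fold change here, so those of GSTM3 stayed at 1.99, 1.53 and 0.46.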
